A study of Mus musculus with 15 samples.

Results

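Skin that had healed from a 15 mm wound filled with acellular Matrigel beads was compared with normal skin across every gene in the table, to describe which tissues and pathways were back at the level of normal skin and which were not. The mice were wild-type male balb/c animals aged 4 to 6 weeks at surgery. The wound was a round full-thickness excision on the dorsal midline that removed about 35% of the dorsal skin, and it was filled with printed beads without cells and covered with a transparent dressing. Normal skin was the reference group, and the labels do not say where on the body it was taken. The comparison used 3 samples of each kind, which are 6 of the 15 bulk RNA sequencing samples in the series; 2 other groups of 3, acellular beads in a 10 mm wound and high-density beads (HDB), which carry mesenchymal stem cells, in a 15 mm wound, were used for direct tests. The remaining group of 3, HDB in a 10 mm wound, entered only the fit over all 5 groups. For the sequenced skin the methods state an implantation time of 4 weeks, while the wound experiment itself is said to end on day 21. Nothing in the labels says that the samples of a group came from separate mice, so p-values measure the spread between these samples, which may be technical.

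Normal mouse skin holds several tissues under 1 surface. A layered epidermis makes the lipid and protein barrier, and hair follicles with their sebaceous glands cycle through growth, regression and rest. A collagen-rich dermis carries vessels, nerves, fat and resident immune cells, and a thin skeletal muscle sheet, the panniculus carnosus, lies beneath. A full-thickness excision removes all of them at once, and repair builds a new epidermis and a new matrix by routes that need not rebuild each of the other tissues.

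All 6 samples held skin RNA. Krt5, the keratin of basal epidermal cells, was at 2875, 6604 and 4904 CPM (counts scaled to library size by the TMM method) in acellular 15 mm replicates 1, 2 and 3 and at 2928, 2173 and 2153 CPM in the normal samples, in that order of replicates here and below. Total estimated counts over the series lay between 15840551 and 18404188, so depth differed little. The acellular 15 mm samples were less alike than the normal ones. Correlations of log2 CPM between replicates, across genes, ran from 0.868 to 0.926 in the first group and from 0.981 to 0.988 in the second.

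Of 18929 genes, 14791 had enough counts to be tested, and 972 differed between acellular 15 mm and normal skin at an adjusted p below 0.05 (edgeR quasi-likelihood test, Benjamini-Hochberg adjustment), which is 6.57%. Levels were higher in acellular 15 mm skin for 430 genes (2.91%) and lower for 542 (3.66%). The 3 samples of 1 group lay wholly on 1 side of those of the other for each of the 972 genes, while over all genes tested this held for 25.1% above and 20.5% below. The adjusted p-values of the called genes were bunched just under the threshold, the smallest being 0.0471, and 5085 genes had an unadjusted p under 0.05. The count of calls therefore turned on single libraries. It was 2740 without acellular 15 mm replicate 1 and 2042 without replicate 3. Without replicate 2 it was 898, of which 150 were higher and 748 lower. It was 0 without any 1 of the 3 normal samples, where 3269, 3279 and 2918 genes had an unadjusted p under 0.05. Every called gene kept its direction in each of these fits. That was all but fixed in advance, since the groups of these genes do not overlap, and it adds no support. A fit that took its spread from all 5 groups called 2701 genes higher (17.6%) and 1941 lower (12.6%), 957 of the 972 among them in the same direction, and DESeq2 called 4024, all 972 among them. Gene groups are therefore described below by their values in each sample beside the calls, each count of calls is read against the shares of 2.91% and 3.66%, and 1 called gene in a list is not read as a result about the list.

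**Figure D1:**
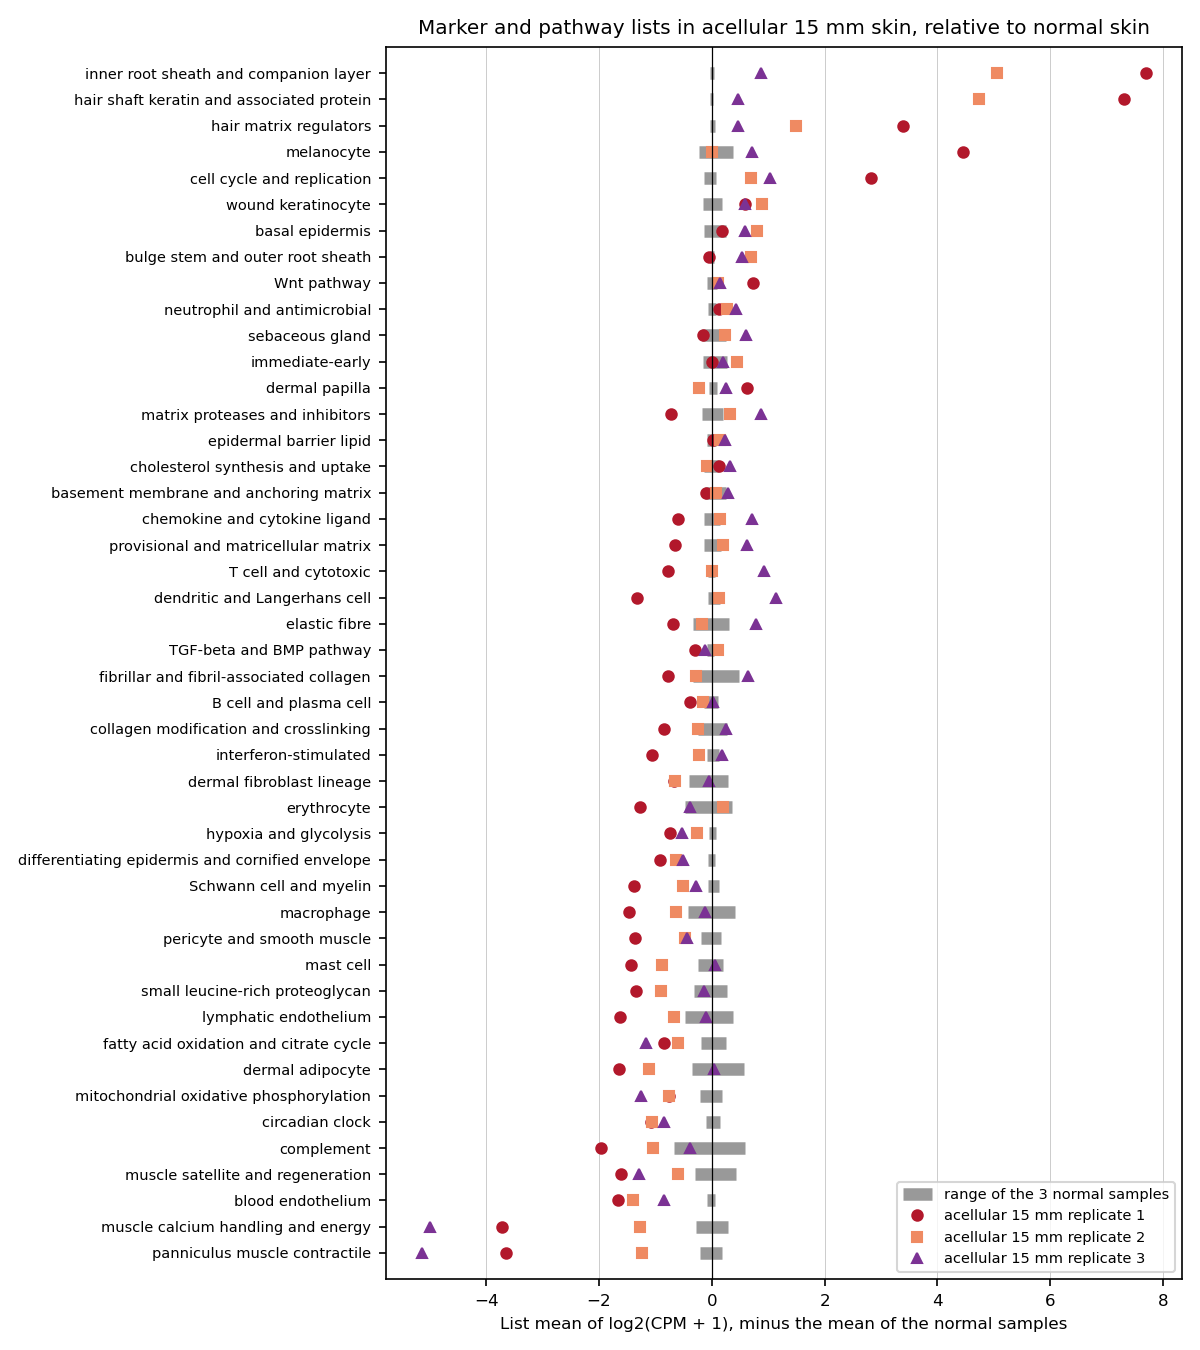
Mean log2(CPM + 1) of each of the 46 gene lists in acellular 15 mm replicate 1 (circle), replicate 2 (square) and replicate 3 (triangle), minus the mean of the 3 normal samples, whose range is the grey bar, with lists in order of the mean difference. The hair shaft and inner root sheath lists stand far to the right in replicates 1 and 2, the lists of muscle contraction and of muscle calcium handling and energy are the farthest to the left on average, and the blood endothelium, circadian clock and oxidative phosphorylation lists lie to the left of the grey bar in all 3 replicates.

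Genes of the blood vessel wall were lower in acellular 15 mm skin. Of 24 blood endothelium genes tested, 13 fell and none rose, against 3.66% of all genes that fell, and all 24 had a negative log2 fold change with a median of -1.39. Every acellular 15 mm sample lay below every normal sample for 21 of the 24. The summed level of the list was 481, 597 and 921 CPM against 1581, 1819.9 and 1866 CPM in normal skin. In bulk samples fewer endothelial cells and less RNA per endothelial cell cannot be told apart. The count of 13 was 16, 6 and 19 without acellular 15 mm replicate 1, 2 and 3, and it was 0 when any 1 normal sample was left out, while the median stayed between -1.71 and -1.26 over all 15 settings.

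Among these genes Gpihbp1 (Entrez Gene 68453, chr15:75596630-75598213 in GRCm38.p6), which carries lipoprotein lipase across capillary endothelium, was at 8.34, 7.197 and 11.1 CPM in acellular 15 mm skin and at 50.04, 34.3 and 31.9 CPM in normal skin. The groups were far apart, with a log2 fold change of -2.12 ± 0.26 (SE, n = 3 and 3, edgeR adjusted p = 0.0471). Ptprb, a phosphatase of the endothelial junction, was at 34.5, 39.6 and 58.2 CPM against 155, 152 and 167 CPM (-1.84 ± 0.22, edgeR adjusted p = 0.0471). Pecam1 (Entrez Gene 18613, chr11:106654213-106715281 in GRCm38.p6), which encodes the endothelial marker CD31, was at 50.1, 53.8 and 102 CPM against 174, 180.1 and 191 CPM. Replicate 3 was the highest of the acellular samples for Pecam1 and still lay below all normal samples (-1.41 ± 0.29, edgeR adjusted p = 0.0484). The VEGF receptor genes Flt1 and Kdr fell by 1.68 and 1.47 on the log2 scale, the angiopoietin receptor Tek by 1.38, the junction cadherin Cdh5 by 1.60 and the endothelial transcription factor Erg by 1.61.

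The cells that wrap or neighbour the vessels were less uniform. Rgs5, a pericyte gene, was at 66.5, 96.5 and 123 CPM against 403, 313 and 336 CPM and fell by 1.88 ± 0.26 on the log2 scale (edgeR adjusted p = 0.0471). It was the only gene of 16 tested in the pericyte and smooth muscle list that edgeR called, while DESeq2 called 5 lower. Without acellular 15 mm replicate 1, 2 and 3 edgeR called 4, 3 and 2 lower. The median log2 fold change of that list was -0.18, and it was -0.053 without replicate 1 and -0.80 without replicate 3. Of 9 lymphatic endothelium genes tested only Lyve1 was called, at 4.28, 4.89 and 7.09 CPM against 13.98, 56.5 and 30.96 CPM. The count of calls in this list was 0, 0 and 2 without acellular 15 mm replicate 1, 2 and 3. Lyve1 is also made by some resident macrophages. The chemokine Ccl21a, the most abundant gene of that list, was at 12.5, 26.1 and 119.8 CPM against 41.9, 97.3 and 123 CPM, with replicate 3 within the normal range.

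**Figure D2:**
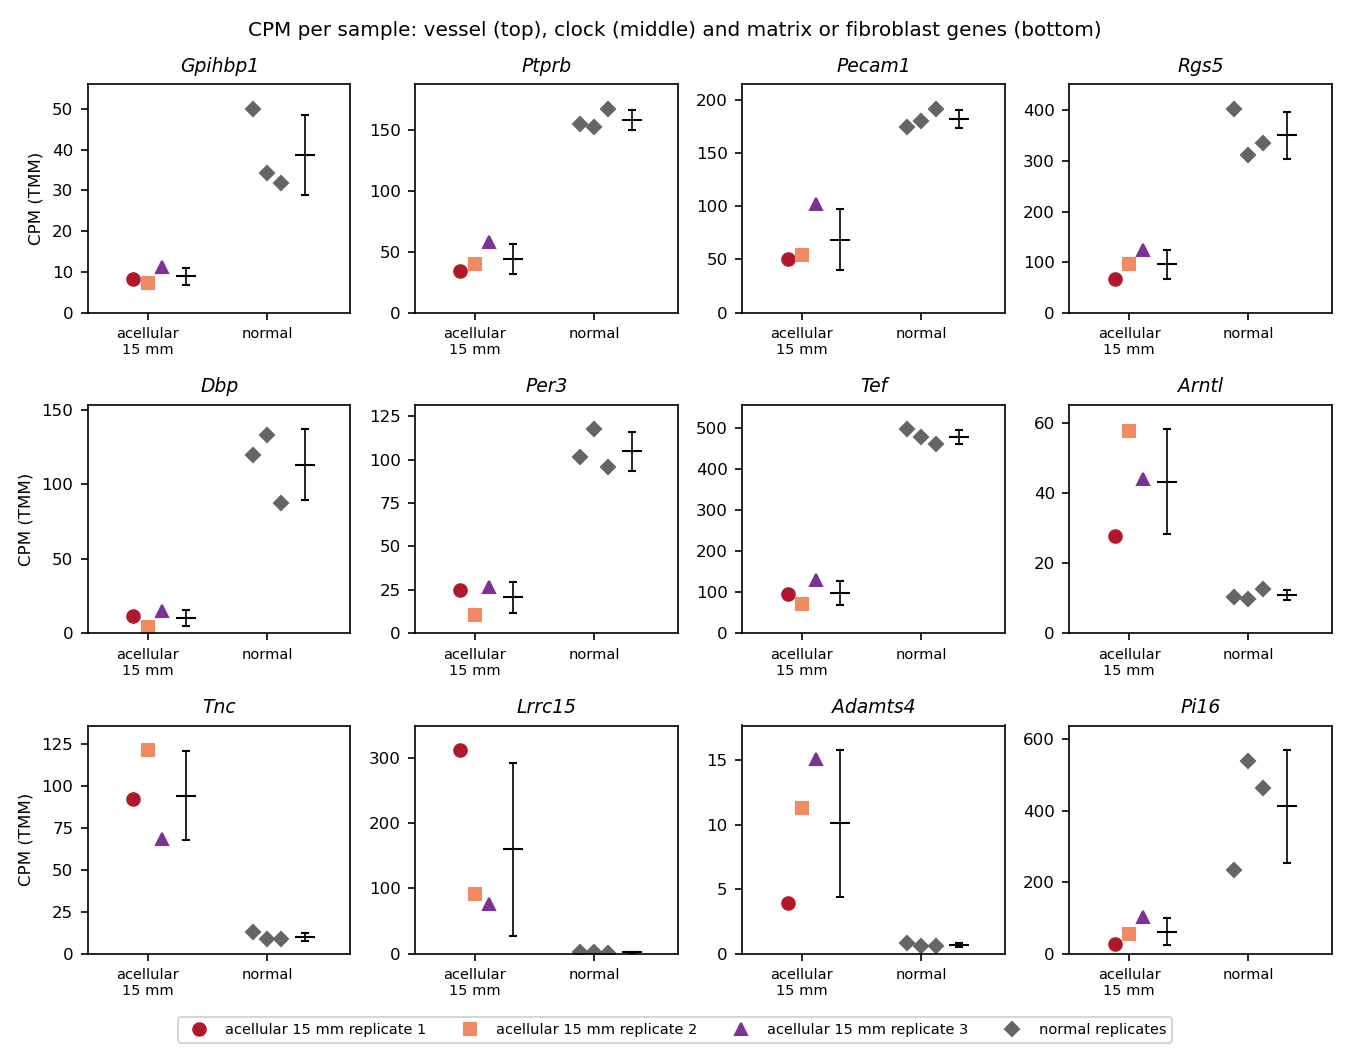
CPM of 12 genes in each acellular 15 mm sample (coloured circle, square and triangle for replicates 1, 2 and 3) and each normal sample (grey diamonds), with the mean and SD of each group (n = 3) as a bar beside the points; each panel starts at 0 and has its own scale. For each of the 12 genes the groups do not overlap, with vessel genes, Dbp, Per3, Tef and Pi16 lower and Arntl, Tnc, Lrrc15 and Adamts4 higher in acellular 15 mm skin.

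Genes of the circadian clock differed in both directions. In this clock Arntl (BMAL1) and Clock switch on the Per and Cry genes, whose proteins then hold them back, and a second loop through the Nr1d receptors controls Arntl; the factors Dbp, Tef and Hlf carry the rhythm to other genes. Of 19 clock genes tested, 9 fell and 1 rose in acellular 15 mm skin, against 3.66% of all genes that fell and 2.91% that rose. The activator Arntl was at 27.7, 57.6 and 43.98 CPM against 10.4, 9.81 and 12.5 CPM and rose by 1.98 ± 0.29 on the log2 scale (edgeR adjusted p = 0.0471). Its partner Clock overlapped between groups, at 48.9, 96.1 and 111 CPM against 61.9, 66.1 and 73.3 CPM.

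All 3 Per genes fell. Per1 was at 28.5, 33.1 and 26.1 CPM against 143, 93.6 and 92.1 CPM, Per2 at 25.8, 8.83 and 8.58 CPM against 90.6, 86.95 and 66.00 CPM, and Per3 at 24.8, 10.3 and 26.4 CPM against 101, 117 and 95.6 CPM. Their log2 fold changes were -1.90 ± 0.22, -2.49 ± 0.48 and -2.35 ± 0.36 (edgeR adjusted p = 0.0471 for each). The repressor gene Cry2 fell by 1.47 ± 0.14 on the log2 scale, and Cry1, at 43.02, 22.5 and 13.6 CPM against 38.5, 31.7 and 37.7 CPM, overlapped. All 3 output factors fell, and Dbp (Entrez Gene 13170, chr7:45705100-45710203 in GRCm38.p6) had the largest fall of the list, with 11.5, 4.22 and 15.1 CPM against 119.7, 133 and 87.2 CPM (-3.46 ± 0.49, edgeR adjusted p = 0.0471). Tef was the most abundant gene of the list, at 94.8, 71.6 and 129 CPM against 497, 477 and 461 CPM (-2.28 ± 0.25), and Hlf fell by 1.50 on the log2 scale. Of the receptor loop, Nr1d2 fell by 1.68 on the log2 scale, while Nr1d1 was at 15.1, 29.5 and 66.3 CPM against 56.8, 60.2 and 53.5 CPM, with replicate 3 above the normal samples. The count of 9 lower genes was 11, 8 and 10 without acellular 15 mm replicate 1, 2 and 3, and it was 0 when any 1 normal sample was left out. The hour at which skin was collected is not given in the sources used here.

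Promoter sequences of clock genes are shown because 9 of these genes fell and because the letters their regulators are known to read can be seen in some of them. The E-box CACGTG is read by Arntl with Clock, and the D-box TTATGTAA (TTACATAA on the other strand) by Dbp, Tef and Hlf. The promoters are the 250 bases before the start site from RefSeq (GRCm38.p6), written 5′ to 3′ on the strand of the gene, with a motif in capitals; CACGTG reads the same on both strands, and neither motif overlaps the other in these windows.
Per3 (chr4:151044666-151044915, minus strand): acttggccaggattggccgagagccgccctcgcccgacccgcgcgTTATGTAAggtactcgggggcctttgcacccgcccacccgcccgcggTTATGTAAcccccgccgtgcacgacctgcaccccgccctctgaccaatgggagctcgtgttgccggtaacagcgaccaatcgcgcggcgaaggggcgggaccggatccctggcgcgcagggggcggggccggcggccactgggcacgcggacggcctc
Tef (chr15:81802423-81802672, plus strand): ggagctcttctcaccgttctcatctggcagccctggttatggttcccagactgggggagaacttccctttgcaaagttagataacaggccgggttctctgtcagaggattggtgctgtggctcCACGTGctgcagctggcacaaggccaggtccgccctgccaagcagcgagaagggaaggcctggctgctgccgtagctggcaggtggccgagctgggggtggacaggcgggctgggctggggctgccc
Per1 (chr11:69098699-69098948, plus strand): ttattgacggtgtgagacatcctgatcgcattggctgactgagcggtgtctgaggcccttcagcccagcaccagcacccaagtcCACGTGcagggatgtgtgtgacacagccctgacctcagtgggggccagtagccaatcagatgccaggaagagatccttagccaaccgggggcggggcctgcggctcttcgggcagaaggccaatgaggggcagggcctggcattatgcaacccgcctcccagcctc
Dbp (chr7:45704997-45705246, plus strand): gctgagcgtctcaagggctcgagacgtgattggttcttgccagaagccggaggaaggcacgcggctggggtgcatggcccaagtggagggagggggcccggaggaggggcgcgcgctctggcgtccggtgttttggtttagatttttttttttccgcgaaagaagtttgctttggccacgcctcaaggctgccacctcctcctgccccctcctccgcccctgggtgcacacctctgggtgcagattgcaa
The Per3 window holds 2 D-boxes, which begin 205 and 158 bases before the start site. The windows shown for Tef and Per1 hold 1 E-box each, 127 and 166 bases before the start. A second window of Tef also holds 1, and the second window of Per1 holds none. The window of Dbp holds neither, which says only that these letters are not in its 250 bases. That window runs past the first base of the gene as placed above, so it precedes a start site inside that span. Of the 19 clock genes 16 had a promoter in the table, and an E-box lay in at least 1 window of 5 of them (Per1, Cry1, Tef, Ciart and Bhlhe41) and a D-box in that of Per3 alone. By window, 6 of the 21 clock promoters held the E-box and 1 the D-box, against 6.02% and 0.819% of all 32851 promoters of the same length. These matches are descriptions of the sequence and were not measured as binding. Of the 5 genes with an E-box, Per1 and Tef fell, and Cry1, Ciart and Bhlhe41 were not called.

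Genes of the respiratory chain were lower. The mitochondrial respiratory chain oxidizes NADH and succinate and drives ATP synthase, and it is dense in skeletal muscle and in growing epithelium. Of 30 oxidative phosphorylation genes tested 12 fell and none rose, against 3.66% of all genes that fell. All 30 had every acellular 15 mm sample below every normal sample, against 20.5% of all genes, with a median log2 fold change of -0.89. Called genes came from complex I (Ndufa1, Ndufa2, Ndufa4, Ndufb3 and Ndufb8), complex II (Sdha, Sdhc and Sdhd), complex III (Uqcrc1), cytochrome oxidase (Cox4i1 and Cox6c) and ATP synthase (Atp5c1). Ndufa4 was at 159, 158 and 101 CPM against 361, 281 and 332 CPM (-1.22 ± 0.23, edgeR adjusted p = 0.0471), and Sdhc was at 103, 125 and 90.2 CPM against 253, 187 and 231 CPM (-1.07 ± 0.19). Atp5b, the most abundant gene of the list, was at 1453, 1170.4 and 890.4 CPM against 2161, 1643 and 1833 CPM and was not called (-0.68 ± 0.29, edgeR adjusted p = 0.153).

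The count of 12 was 23, 5 and 16 without acellular 15 mm replicate 1, 2 and 3, and it was 0 when any 1 normal sample was left out. Skeletal muscle genes were lower as well. The summed level of the oxidative phosphorylation list was 6989, 6560.4 and 4764 CPM against 12537, 9558 and 11101 CPM, and that of the muscle contractile list was 3681, 22678 and 1079.8 CPM against 72069, 56682 and 66979 CPM. Among the acellular samples replicate 2 had the highest muscle sum and replicate 1 the highest oxidative phosphorylation sum. The normal samples ranked the same way in both sums. The part of muscle in this difference was not tested. In the fatty acid oxidation and citrate cycle list 5 of 23 fell and none rose, against 3.66% of all genes that fell, among them the citrate cycle enzymes Ogdh, at 234, 262 and 179.7 CPM against 548, 412 and 473 CPM (-1.08 ± 0.21) and Idh2 (-0.86 ± 0.16). In the hypoxia and glycolysis list 4 of 24 fell and none rose by edgeR, but the list was mixed. Its log2 fold change was positive for 10 genes, every acellular sample lay above every normal one for 8 and below for 12, against 25.1% and 20.5% of all genes, and DESeq2 called 5 higher and 11 lower. Hexokinase 2 (Hk2) was at 67.7, 99.97 and 55.9 CPM against 382, 214 and 264 CPM (-1.94 ± 0.31, edgeR adjusted p = 0.0471) and lactate dehydrogenase A (Ldha) at 578, 875 and 505 CPM against 1999, 1725 and 1682 CPM (-1.47 ± 0.29). Without acellular 15 mm replicate 1, 2 and 3 the counts were 10, 3 and 7 in the first list and 5, 7 and 5 in the second. The glucose transporter Slc2a4, made in muscle and fat, fell by 2.48 ± 0.51 on the log2 scale, and Gys1, muscle glycogen synthase, by 2.16 ± 0.39.

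Skeletal muscle RNA was lower in every acellular 15 mm sample but by unequal amounts. Acta1 (Entrez Gene 11459, chr8:123891758-123894775 in GRCm38.p6), the actin of the muscle thin filament, was at 734, 4354 and 136 CPM against 15654, 12349 and 14176 CPM. The groups did not overlap, and replicate 2 was several times above the other acellular samples. The log2 fold change was -3.01 ± 1.21, and it was not called (edgeR adjusted p = 0.138). The contractile list as a whole took 0.3598, 2.42 and 0.121% of counts in acellular 15 mm replicates 1, 2 and 3 and 6.74, 5.39 and 6.33% in normal skin. Of its 23 genes tested 21 had every acellular sample below every normal one, against 20.5% of all genes, with a median log2 fold change of -2.79, and none was called by edgeR, with 13 at an unadjusted p under 0.05, while DESeq2 called 18 lower. Without replicate 2 edgeR called 20 of the 23 lower and the median was -4.88. Myh4, the fast myosin heavy chain, was at 601, 3925 and 106 CPM against 6628, 9407 and 7568 CPM, and the calcium pump Atp2a1 at 535, 3563 and 119 CPM against 10038, 8061 and 9255 CPM. Lmod2, which nucleates thin filaments, was called, at 8.84, 29.7 and 2.88 CPM against 255, 152 and 228 CPM (-3.94 ± 0.85, edgeR adjusted p = 0.0495), but not when library sizes were scaled by the RLE method in place of TMM.

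In the muscle satellite and regeneration list Pax7, the marker of satellite cells, was at 0.389, 1.74 and 0.107 CPM against 5.88, 3.38 and 3.12 CPM. Cd82, the most abundant gene of the list and not particular to muscle, was at 88.1, 109 and 99.7 CPM against 107, 93.00 and 106 CPM and overlapped (-0.047 ± 0.13). The filter on low counts kept 10 of the 13 listed genes, and Pax7 passed it through the normal samples, where it is high. A gene kept in that way lies lower by selection, so the direction of the list was partly fixed in advance. All 10 tested genes had a negative log2 fold change, with a median of -2.40. With no filter the median of the 13 was -1.59. None was called by edgeR, 6 had an unadjusted p under 0.05, and DESeq2 called 6 lower. Without acellular 15 mm replicate 2 edgeR called 6 lower and the median was -3.80.

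Hair genes differed by orders of magnitude, from normal skin and between the acellular 15 mm samples themselves. Krt83 (Entrez Gene 100126226, chr15:101485130-101491512 in GRCm38.p6), a keratin of the hair shaft, was at 2749, 219.8 and 1.55 CPM in acellular 15 mm replicates 1, 2 and 3 and at 0 in all 3 normal samples. Replicate 1 held more than 10 times as much as replicate 2, and replicate 3 nearly none. Tchh, the trichohyalin of the inner root sheath, followed the same order, at 4936, 247 and 10.9 CPM against 5.13, 5.41 and 5.06 CPM, as did the sheath keratin Krt71, at 2905, 196 and 3.89 CPM against 0.135, 0.0637 and 0.0649 CPM. The hair shaft list summed to 17801, 1769.8 and 23.03 CPM in acellular 15 mm skin, which is 1.74, 0.189 and 0.00259% of counts, and to 9.79, 6.24 and 8.37 CPM in normal skin. Only 10 of its 29 genes in the table passed the filter on low counts. Most of them passed only through the acellular samples in which they are high, so no count of calls over them is given. Hair keratins and their associated proteins are families of close copies, and how reads shared between copies were divided cannot be read from the table.

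**Figure D3:**
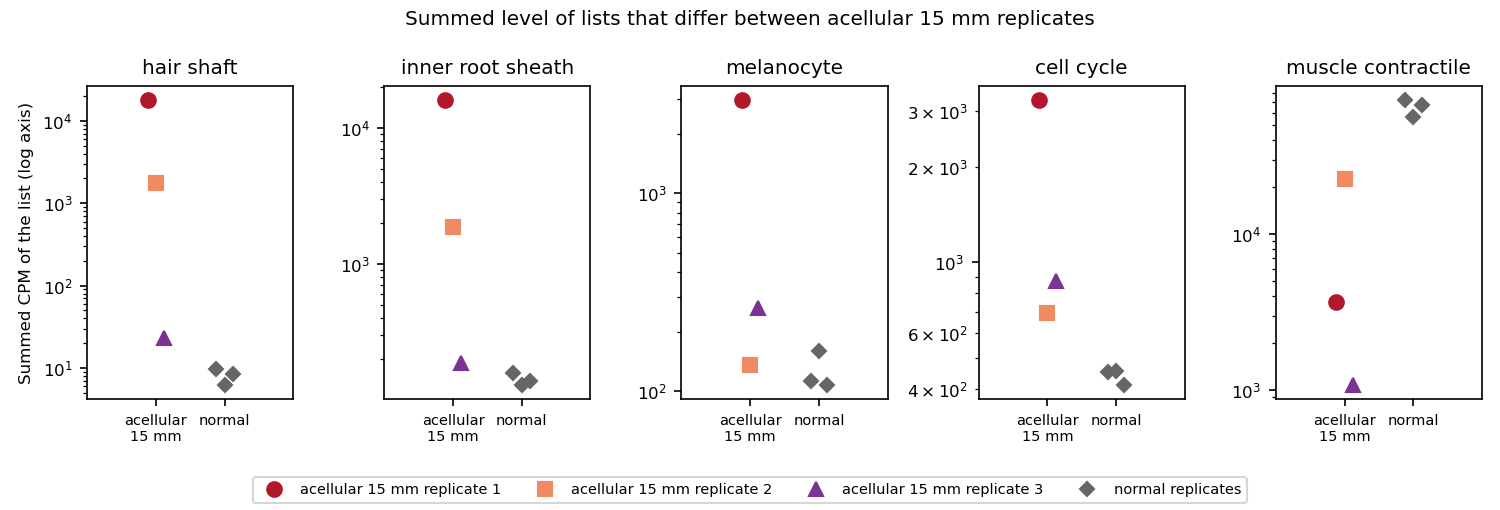
Summed CPM of the hair shaft, inner root sheath, melanocyte, cell cycle and muscle contractile lists in acellular 15 mm replicate 1 (circle), replicate 2 (square) and replicate 3 (triangle) and in the 3 normal samples (diamonds), each on its own log axis. Replicate 1 is highest for the first 4 lists, replicate 3 lies close to normal skin for the hair lists, and replicate 2 is the closest to normal skin for muscle.

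Among regulators of the hair matrix, the dividing cells that make the shaft, 2 of 18 tested rose, against 2.91% of all genes. Hoxc13, which controls hair keratin genes, was at 239, 102 and 10.7 CPM against 3.65, 3.69 and 3.05 CPM (5.08 ± 1.09, edgeR adjusted p = 0.0495). Vdr, the vitamin D receptor needed for hair cycling, was at 359.5, 359 and 159 CPM against 66.8, 59.6 and 49.4 CPM (2.32 ± 0.35, edgeR adjusted p = 0.0471). The count of 2 was 4, 1 and 11 without acellular 15 mm replicate 1, 2 and 3, 1 with RLE scaling, where Hoxc13 was not called, and 10 with DESeq2. Several others were led by replicate 1 and were not called. Msx2, a factor of the matrix, was at 209, 33.2 and 5.12 CPM against 1.69, 1.91 and 2.14 CPM, and Lef1, a Wnt effector of the matrix, at 224, 14.7 and 7.73 CPM against 7.23, 4.08 and 4.802 CPM. Shh was at 24.8, 0.843 and 0.0533 CPM against 0.5403, 0.892 and 0.2596 CPM, with replicates 2 and 3 within or below the normal range.

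Outside the matrix, 2 of 18 bulge and outer root sheath genes rose, against the same 2.91%, and the list was mixed. Of the 18 genes 6 had a negative log2 fold change, and DESeq2 called 6 higher and 2 lower. Lgr5, a marker of cycling follicle stem cells, was at 53.3, 149 and 33.7 CPM against 6.89, 9.75 and 9.47 CPM (3.17 ± 0.59, edgeR adjusted p = 0.0471), and Sox9, the outer root sheath factor, at 53.2, 141 and 68.5 CPM against 24.2, 25.03 and 22.1 CPM (1.88 ± 0.38). The count of 2 was 6, 2 and 4 without acellular 15 mm replicate 1, 2 and 3. Both genes were highest in replicate 2, and both were raised in replicate 3, which had nearly no hair shaft RNA. Krt15, a bulge keratin and the most abundant gene of that list, was at 752, 2348 and 2356 CPM against 1846, 1293 and 1438 CPM and overlapped. In the dermal papilla, the fibroblast cluster that instructs the follicle, Corin rose (48.1, 11.1 and 9.86 CPM against 1.08, 1.08 and 1.298 CPM, 4.31 ± 0.75) and Prom1 fell (3.28, 5.06 and 7.84 CPM against 24.5, 16.4 and 19.5 CPM, -1.90 ± 0.36), and the other 19 genes tested were not called by edgeR, while DESeq2 called 4 of the list higher and 2 lower.

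Melanocyte genes were high in 1 library. Dct, a pigment enzyme, was at 798, 25.5 and 74.4 CPM against 23.6, 39.2 and 18.7 CPM, and tyrosinase (Tyr) at 211, 2.47 and 6.08 CPM against 1.22, 3.69 and 0.779 CPM. None of 10 melanocyte genes tested was called by edgeR, 7 had an unadjusted p under 0.05, and DESeq2 called 3 higher. Their median log2 fold change was 3.79 with all samples and 0.65 without replicate 1.

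Cell cycle genes had the same leading library. Mki67, the proliferation antigen Ki67, was at 684, 116 and 138 CPM against 43.1, 43.00 and 36.7 CPM, with no overlap, and just missed the threshold (2.93 ± 0.74, edgeR adjusted p = 0.0616). All 28 genes of the list had a positive log2 fold change, with a median of 2.24, and every acellular sample lay above every normal one for 19 of them, against 25.1% of all genes. Cenpf, a kinetochore protein, was the only one called, at 127, 28.4 and 38.6 CPM against 8.71, 7.64 and 4.67 CPM (3.21 ± 0.65, edgeR adjusted p = 0.0479), and DESeq2 called 17. Without acellular 15 mm replicate 1, 2 and 3 edgeR called 16, 4 and 8, and without replicate 1 the median was 0.98.

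Few dermal matrix genes were called by edgeR, and the lists were mixed. The provisional and matricellular matrix list had 1 called gene of 23, the matrix proteases 2 of 25, the elastic fibre list 1 of 19 and the basement membrane list 2 of 21, against 2.91% of all genes called higher. The protease Adamts4 and the elastic fibre gene Fbn2 are among these calls. Both passed the filter on low counts through the acellular samples, where they are high. Within these lists 10, 13, 10 and 10 genes had a negative log2 fold change, and DESeq2 called 4 higher and 4 lower, 7 and 3, 2 and 3, and 5 and 1 in the same order. None of 11 small leucine-rich proteoglycan genes was called by edgeR, 5 had an unadjusted p under 0.05 and DESeq2 called 5 lower. Of those 11 genes 9 had a negative log2 fold change, with a median of -1.06, and without acellular 15 mm replicate 3 edgeR called 7 lower and the median was -2.13. Lrrc15 (Entrez Gene 74488, chr16:30269302-30283254 in GRCm38.p6), a membrane protein of activated fibroblasts, was at 313, 91.1 and 76.6 CPM against 1.76, 1.91 and 1.43 CPM (6.55 ± 0.72, edgeR adjusted p = 0.0471). Tnc (Entrez Gene 21923, chr4:63959785-64047015 in GRCm38.p6), the wound matrix protein tenascin C, was at 92.3, 122 and 68.5 CPM against 12.8, 8.85 and 8.44 CPM (3.23 ± 0.29, edgeR adjusted p = 0.0471). Sparc, the most abundant gene of the provisional matrix list, was at 971, 1079 and 2437 CPM against 2081, 5669 and 3743 CPM and was not called (-1.36 ± 0.55). For Lrrc15 and Tnc every acellular sample was many times above every normal one. Of the matrix proteases, Adam12 was at 23.2, 25.9 and 69.1 CPM against 6.21, 9.87 and 5.19 CPM (2.47 ± 0.52). Adamts4, which cuts proteoglycans, was at 3.89, 11.3 and 15.1 CPM against 0.8104, 0.573 and 0.584 CPM. Its normal samples hold few counts, so only its values are given. Fbn2, the fibrillin of developing tissue, was at 3.67, 6.75 and 16.8 CPM against 0.540, 0.701 and 0.779 CPM, and for the same reason only its values are given. Col12a1, which decorates collagen fibrils, rose by 1.77 ± 0.26 on the log2 scale. In the basement membrane Col18a1 and Fras1 rose by 1.39 ± 0.25 and 2.15 ± 0.46, and Fras1 was not called with RLE scaling.

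The main fibrillar collagens were not called. Col1a2 was at 1029, 1076 and 4560.3 CPM against 2184, 7863 and 4685 CPM and Col3a1 at 1178, 1423 and 5405 CPM against 2253, 6902 and 3658 CPM, and both groups spanned several-fold. Col12a1 was the only called gene of 19 in the fibrillar collagen list, whose median log2 fold change was 0.084 beside 0.080 over all genes tested, and it was -0.68 without acellular 15 mm replicate 3. None of 24 collagen modification genes was called by edgeR, with 3 at an unadjusted p under 0.05 and 3 called by DESeq2. For 9 of them the 95% interval of the log2 fold change lay within 1 unit of 0, against 43.6% of all genes. P4hb, a subunit of prolyl hydroxylase, was at 528, 468 and 488 CPM against 438, 475 and 473 CPM.

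Some genes of dermal fibroblasts and macrophages fell, but not every gene of either list lay lower. Of 19 fibroblast genes tested 2 fell and 1 rose and of 27 macrophage genes 3 fell and 1 rose, against 3.66% and 2.91% of all genes. The log2 fold change was positive for 5 and 10 of them, and without acellular 15 mm replicate 2 none of either list was called lower. DESeq2 called 3 higher and 8 lower in the first list and 2 and 11 in the second. Pi16, a marker of a widespread fibroblast population, was at 25.5, 55.8 and 102 CPM against 235, 538 and 464 CPM (-2.75 ± 0.58, edgeR adjusted p = 0.0484), and Sfrp4, a secreted Wnt antagonist of dermal fibroblasts, at 12.5, 4.39 and 7.25 CPM against 33.1, 94.3 and 98.9 CPM (-3.23 ± 0.57). With Lrrc15 these were the called genes of the fibroblast list, and decorin (Dcn), at 295, 346 and 803 CPM against 785, 1850.1 and 1721 CPM, was not called. The macrophage genes that fell were Cd163, Folr2 and Retnla, the last at 5.17, 20.4 and 18.02 CPM against 61.5, 287 and 177 CPM (-3.59 ± 0.75). Folr2 was at 3.78, 4.33 and 6.18 CPM against 12.8, 55.1 and 33.4 CPM, and for both genes the normal samples spanned several-fold. The count of 3 macrophage genes was 5, 0 and 5 without acellular 15 mm replicate 1, 2 and 3. Fcna, a ficolin made by macrophages that is not in the list, was at 1.56, 1.63 and 1.17 CPM against 8.24, 41.3 and 23.8 CPM (-4.07 ± 0.63). Gpnmb rose, at 586, 314 and 209.8 CPM against 43.5, 58.5 and 44.5 CPM (2.92 ± 0.41). Gpnmb is made by lipid-laden macrophages and also by melanocytes, and it was highest in replicate 1, the library with the most melanocyte RNA; the part of melanocytes in its level was not tested. The general macrophage gene Cd68 was at 6.67, 26.6 and 31.5 CPM against 17.8, 25.7 and 15.9 CPM and overlapped.

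In the epidermis, 2 of 14 wound keratinocyte genes tested rose, against 2.91% of all genes. Krt17, a keratin of wounds and of the outer root sheath, was at 1669.6, 2301 and 625 CPM against 296, 338 and 283 CPM (2.33 ± 0.49, edgeR adjusted p = 0.0484), and Sprr1a, a cornified envelope precursor raised in wounds, at 146, 131 and 20.2 CPM against 8.85, 10.00 and 4.74 CPM (3.65 ± 0.78). The count of 2 was 3, 1 and 4 without acellular 15 mm replicate 1, 2 and 3, 0 with RLE scaling and 6 with DESeq2. The wound keratins Krt6a and Krt16 were highest in replicate 2, at 194, 1027 and 218 CPM against 191, 117 and 86.1 CPM and 16.1, 317 and 35.98 CPM against 5.13, 3.12 and 2.47 CPM, and were not called. In the basal layer 2 of 14 genes were called, none without acellular 15 mm replicate 2, none with RLE scaling and 6 with DESeq2. Cdh3 and Lama3 rose by 2.44 ± 0.52 and 0.93 ± 0.20 on the log2 scale. Gjb2 (Entrez Gene 14619, chr14:57098602-57104702 in GRCm38.p6) and Gjb6, gap junction genes of follicle and wound epithelium, were at 1126, 338 and 30.2 CPM against 3.24, 3.19 and 2.92 CPM and 82.3, 27.9 and 8.32 CPM against 0.473, 0.764 and 0.519 CPM, in the order of the hair keratins. In the differentiating layers Krt10 was at 209.7, 526 and 977 CPM against 1325, 1486 and 1858 CPM, with every acellular sample lower, and was not called (-1.45 ± 0.55, edgeR adjusted p = 0.126). The protease Klk5 was the only gene of 30 in that list that edgeR called (-1.70 ± 0.25), and 8, 2 and 7 were lower without acellular 15 mm replicate 1, 2 and 3. Of the 30 genes 22 had a negative log2 fold change, 13 had every acellular sample below every normal one, against 20.5% of all genes, and DESeq2 called 10 lower.

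Cholesterol synthesis genes lay close to normal skin. Among the 46 lists, cholesterol synthesis had the largest share of genes with a narrow interval around no difference. For 17 of 22 cholesterol synthesis and uptake genes the 95% interval of the log2 fold change lay within 1 unit of 0, against 43.6% of all genes tested. None was called by edgeR or DESeq2, and 1 had an unadjusted p under 0.05. For 14 of 24 epidermal barrier lipid genes the interval was as narrow, with Elovl4, which makes very long fatty acids, at 1363, 2241 and 2991 CPM against 2409.7, 1654 and 1690.0 CPM and Abca12, the lipid transporter of lamellar granules, at 21.9, 26.5 and 31.1 CPM against 22.4, 25.1 and 35.3 CPM. In the barrier lipid list the groups did not overlap for 5 genes that were higher and 3 that were lower, and DESeq2 called 3 higher and 2 lower. The lipoxygenase Alox12e was the only gene of it that edgeR called, at 131, 512 and 546 CPM against 67.9, 61.3 and 74.3 CPM (2.55 ± 0.53). Of 20 sebaceous gland genes none was called by edgeR, 5 had an unadjusted p under 0.05 and DESeq2 called 3 higher; Scd1, the desaturase of sebum synthesis, was at 3428, 5394 and 8059.8 CPM against 4585, 7049 and 3055 CPM. For the 7 sebaceous genes with an interval within 1 unit of 0 the share is below that of all genes. Dermal fat was less even. Of 22 adipocyte genes 21 had a negative log2 fold change, with a median of -0.71, but only 4 had every acellular sample below every normal one, which is under the 20.5% of all genes. The median was -1.47 without acellular 15 mm replicate 3 and -0.39 without normal replicate 2. Car3, abundant in fat and muscle, was at 914, 2008 and 3112 CPM against 6639.6, 8005 and 6939 CPM.

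Called signalling genes were few. In the Wnt list 2 of 34 rose and 2 fell, which is near the 2.91% and 3.66% of all genes and is not read as a result about the list. DESeq2 called 7 of the list higher and 3 lower. The receptor Fzd6 was at 202, 169 and 115 CPM against 60.7, 50.1 and 57.8 CPM (1.53 ± 0.23) and the Wnt and BMP inhibitor Sostdc1 at 70.1, 84.1 and 93.1 CPM against 33.6, 25.5 and 24.5 CPM (1.56 ± 0.19), while the receptor Fzd4 and Sfrp4 fell by 1.37 and 3.23 on the log2 scale. None of 34 TGF-beta and BMP genes was called by edgeR, with 12 at an unadjusted p under 0.05 and 9 called by DESeq2. Of 18 immediate-early genes 4 rose, namely Egr1, Egr2, Junb and Ier2, against 2.91% of all genes, and Nr4a1 fell. The count of 4 was 6, 1 and 4 without acellular 15 mm replicate 1, 2 and 3. Egr1 was at 264, 246 and 146 CPM against 90.6, 81.9 and 52.96 CPM (1.54 ± 0.31) and Nr4a1 at 15.3, 34.7 and 20.5 CPM against 146, 68.7 and 92.9 CPM (-2.12 ± 0.41). Fos, at 13.3, 59.2 and 53.9 CPM against 23.4, 20.1 and 11.6 CPM, overlapped. Klf4, the most abundant gene of the list, was lower in every acellular sample, at 128, 123 and 147 CPM against 217, 188 and 191 CPM. It was not called (-0.58 ± 0.14, edgeR adjusted p = 0.0590). The list was mixed, with 11 positive and 7 negative log2 fold changes and a median of 0.14, and DESeq2 called 4 higher and 2 lower.

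Among all called genes those with the largest changes included a gene of body position. Hoxc10 (Entrez Gene 209448, chr15:102966796-102971898 in GRCm38.p6) was at 0.278, 0 and 0 CPM against 6.35, 3.89 and 7.07 CPM. It was near 0 in acellular 15 mm skin and passed the filter on low counts through the normal samples, so only its values are given. Hox genes lie in 4 clusters, and their order along a cluster follows the order along the body axis where they act; adult fibroblasts keep part of this pattern. The whole family was therefore read out, a choice made after the values of Hoxc10 had been seen. The table held 36 Hox genes, of which 29 were tested.

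**Figure D4:**
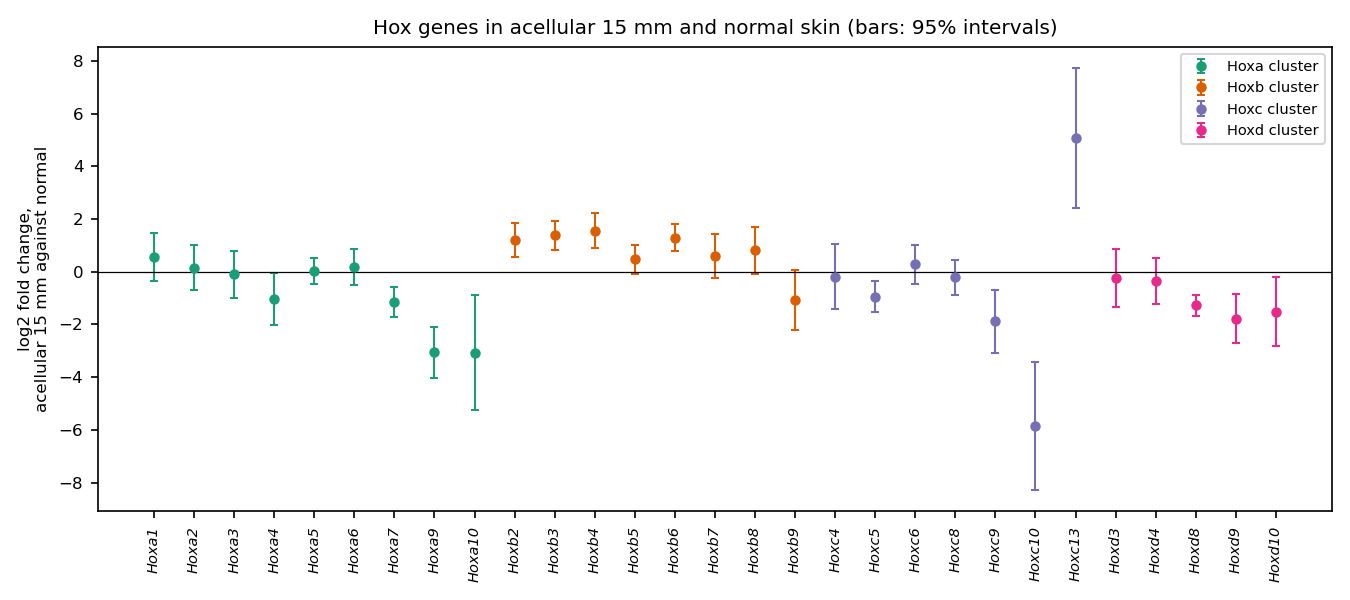
Log2 fold change of acellular 15 mm against normal skin for the 29 Hox genes tested, in order along each of the 4 clusters (colours), with 95% intervals of the edgeR fit. The genes numbered 9 and 10 lie below 0 in every cluster, the called genes of the Hoxb cluster lie above 0, and Hoxc13, which hair matrix also makes, lies far above. The point and interval of Hoxc10 rest on counts near 0 in acellular 15 mm skin.

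Of the 8 tested genes with numbers 9 to 13, all but Hoxc13 had a negative log2 fold change. Leaving out Hoxc10, for which the family was chosen, 2 of the other 7 fell, Hoxa9 and Hoxd9, against 3.66% of all genes. Hoxa9 was at 2.61, 5.398 and 2.29 CPM against 31.1, 21.6 and 33.4 CPM (-3.06 ± 0.40, edgeR adjusted p = 0.0471) and Hoxd9 at 4.502, 9.502 and 12.9 CPM against 31.6, 27.8 and 33.5 CPM (-1.79 ± 0.38). Of the 21 tested with numbers 1 to 8, 4 rose, all from the Hoxb cluster (Hoxb2, Hoxb3, Hoxb4 and Hoxb6), against 2.91% of all genes, and Hoxa7 and Hoxd8 fell. With RLE scaling Hoxb2 was not called. Hoxb4 was at 23.4, 13.9 and 14.02 CPM against 5.67, 5.16 and 6.55 CPM (1.56 ± 0.28). Levels of Hoxa5, Hoxc6 and Hoxc8 overlapped, Hoxc8 being at 22.4, 24.1 and 26.7 CPM against 18.6, 38.9 and 27.5 CPM. The medians were 0.16 for numbers 1 to 8 and -1.84 for 9 to 13, Hoxc10 included. Against the same normal samples they were 0.24 and -1.41 in acellular 10 mm skin and 0.14 and -1.39 in HDB 15 mm skin. Tbx15, a patterning factor of the trunk also made in muscle, was at 21.4, 61.6 and 52.99 CPM against 214, 163 and 202 CPM (-2.09 ± 0.40, edgeR adjusted p = 0.0471); it too was named after its values were seen.

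Other genes with the largest changes fell outside the lists. Edn2, an endothelin made by follicle epithelium, was at 9.39, 10.4 and 1.28 CPM against 0.473, 0.255 and 0.1298 CPM, and Prr9 and Padi1, genes of the cornifying hair, followed the order of the hair keratins, at 497, 78.2 and 6.45 CPM against 0.135, 0.191 and 0.2596 CPM and 88.1, 52.97 and 1.01 CPM against 0.0675, 0.0637 and 0.195 CPM. Of the genes that fell, Ptgis, the prostacyclin synthase of vessels, was at 0.0556, 1.07 and 0.533 CPM against 5.34, 10.1 and 8.24 CPM, Th, tyrosine hydroxylase of sympathetic nerve, at 0.667, 1.29 and 0.213 CPM against 10.5, 8.73 and 9.73 CPM, and Gkn3 at 0.389, 0.4498 and 0.4798 CPM against 3.44, 3.89 and 7.79 CPM. Ip6k3, an inositol phosphate kinase made in muscle, was at 2.45, 7.98 and 1.49 CPM against 72.3, 37.5 and 39.3 CPM. Each of these had no overlap between groups. Most were near 0 in 1 group and passed the filter on low counts through the other, so only their values are given.

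Direct tests were made against 2 of the other wound groups, and HDB 10 mm skin was not tested. The counts depended on the tool. Against acellular 10 mm skin 0 of 14914 genes (0%) were called by edgeR, 1252 had an unadjusted p under 0.05, and DESeq2 called 204. Against HDB 15 mm skin 0 of 14980 genes (0%) were called by edgeR, 1600 had an unadjusted p under 0.05, DESeq2 called 293, and the fit over all 5 groups called 450. A p that misses the threshold does not show that the wounds were alike. All 3 wound groups share the normal samples as their reference, so their values are given side by side. The median log2 fold change of the blood endothelium list was -1.39 in acellular 15 mm, -1.66 in acellular 10 mm and -0.83 in HDB 15 mm skin. That of the clock list was -0.72, -0.52 and -0.83, the first of which was -1.38 without acellular 15 mm replicate 3, that of oxidative phosphorylation -0.89, -0.54 and -0.50, and that of muscle contraction -2.79, -1.85 and -1.77. The median for cholesterol synthesis was 0.17, 0.79 and 0.028. Tnc had log2 fold changes of 3.23, 2.52 and 3.15, and Lrrc15 of 6.55, 5.01 and 6.01 in the same order.

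Called genes also differed in transcript length. The median longest transcript was 4477 bases for genes called higher, 2854 for those called lower and 3377 for the rest. Long transcripts were relatively high in each acellular 15 mm sample and low in each normal sample. The mean log2 deviation of genes above the upper quartile of length minus that of genes below the lower quartile was 0.18, 0.083 and 0.20 in the acellular samples and -0.18, -0.16 and -0.13 in the normal ones. With this trend removed 0 genes were called by edgeR and 4572 had an unadjusted p under 0.05, and 964 of 964 called genes that had a length kept their direction. The median of the oxidative phosphorylation list was -0.68 after removal, that of the blood endothelium list -1.40 and that of the clock list -0.70.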

How the data were processed

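Values were bulk RNA sequencing counts of mouse skin. The authors deposited them as estimated counts per gene and sample, without normalization; the submitters' processing notes name HISAT2 2.0.4, Bowtie2 2.2.5, RSEM 1.2.12 and GRCm38.p6 without saying what each did, and the library's strand is not given in the sources used here. Estimated counts were rounded. Members and gene lists (46, from textbook markers) were chosen with earlier results of these data known.

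In R 4.3.3, edgeR 4.0.16 (TMM, filterByExpr, quasi-likelihood test, Benjamini-Hochberg over all genes tested, threshold 0.05) was fitted to the 2 groups compared. CPM are TMM-scaled over the 6 samples. SE is the log2 fold change over the root of the F statistic, and intervals are at 95%. List levels are sums of CPM or means of log2(CPM + 1). The text names up to 12 called genes with the highest and 12 with the lowest log2 fold change (groups not overlapping, mean of at least 5 CPM), the most abundant and up to 3 called members of each list, genes of the stained proteins, and some members added for their role after their values were seen; some genes the rule names are not reported here. Alternatives were DESeq2 1.42.0, RLE factors, no filter, a mean of at least 50 counts, all 5 groups in 1 fit, a replicate block, leaving out each replicate, a log2 fold change of at least 1, and removing each sample's trend with the longest transcript (GENCODE; 98.4% of genes). Deviations from the group mean correlated between same-numbered acellular 15 mm and HDB 15 mm samples (0.409, 0.163 and 0.184), which by a rule of all 3 above 0.1 counts as pairing; the block left that comparison at 0 calls. On simulated counts with 200 changed genes, the fit of acellular 15 mm against normal recovered 0 at a log2 change of 1, 137 at 2 and 194 at 4, with 11 false calls at each of 2 and 4. Promoters and gene positions came from RefSeq.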

Additional observations from a re-analysis of the deposited data

How the results depend on the processing

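The count of genes that differ between acellular 15 mm and normal skin (972) was 4024 with DESeq2, 4642 with all 5 groups in 1 fit, 629 with a log2 fold change of at least 1, and 0 with no filter (5438 with an unadjusted p under 0.05, smallest adjusted p 0.0534), with the transcript length trend removed (4572, 0.0538), with the replicate block (4159, 0.109) and with the replicate block after removal of the length trend (3738, 0.0986). Leaving out 1 sample gave 0 to 2740. It was 927 with RLE factors and 1069 with a mean of at least 50 counts. The cause of these differences was not tested. The numbers do not pair these groups, since the correlations of same-numbered samples' deviations were 0.126, -0.198 and -0.0224. Against acellular 10 mm skin the count of 0 was 204 with DESeq2 and 0 in the other fits, the replicate block among them. Against HDB 15 mm skin it was 293 with DESeq2 and 450 with all 5 groups, and 0 in the other fits. No result changed sign among the named genes that were called, whose groups do not overlap, so this was largely fixed in advance. The median log2 fold change of 15 of the 46 lists changed sign in at least 1 setting, fibrillar collagen, dermal papilla, sebaceous gland, cholesterol synthesis and barrier lipid among them, so no direction is given for those. The simulation recovered 0 of 200 genes changed by 1 on the log2 scale, although some called genes of the real data differed by less. Genes near 0 CPM in 1 group, such as Padi1 and Hoxc10, rest on few counts there.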

Other observations

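Immune and nerve genes made a mixed picture. The T cell gene Cd3e was at 0.5002, 1.46 and 6.02 CPM in acellular 15 mm replicates 1, 2 and 3 and at 5.81, 3.57 and 3.44 CPM in the normal samples, and none of 18 T cell genes tested was called by edgeR, 1 having an unadjusted p under 0.05 and DESeq2 calling none. Replicate 3 held the most T cell RNA of the 6 samples and replicate 1 the least, with summed levels of 19.01, 53.98 and 141 CPM against 65.8, 59.2 and 58.3 CPM. Dendritic and Langerhans cell genes fell into the same order, at 493, 1317 and 2738 CPM against 1520.1, 1921 and 1617 CPM, and the only called gene of 17, Epcam, rose by 1.31 ± 0.23 on the log2 scale and is also made by hair follicle epithelium. Of 11 mast cell genes tested 10 had a negative log2 fold change, with a median of -0.88, and 1 had every acellular sample below every normal one. None of the 11 was called by edgeR, 2 had an unadjusted p under 0.05 and DESeq2 called 2 lower. Of 5 B cell genes none was called by edgeR, 1 had an unadjusted p under 0.05 and DESeq2 called that many lower.

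Of 32 chemokine and cytokine genes tested, 1 rose and 1 fell, which is near the 2.91% and 3.66% of all genes and is not a result about the list; without acellular 15 mm replicate 2 none was called, and DESeq2 called 8 higher and 7 lower. Ccl1, which draws T cells and other CCR8-bearing cells, was at 1.33, 3.26 and 6.61 CPM against 0.135, 0 and 0.195 CPM, near 0 in normal skin, and Cxcl13, which draws B cells, at 1.61, 1.35 and 1.76 CPM against 5.61, 19.2 and 16.3 CPM (-3.11 ± 0.51, edgeR adjusted p = 0.0471). Of 27 interferon-stimulated genes Ifit2 and Ifit3 fell, against 3.66% of all genes, and DESeq2 called 2 higher and 7 lower, Ifit3 being at 4.002, 8.83 and 6.08 CPM against 16.7, 18.6 and 17.00 CPM. The log2 fold change was negative for 18 of 19 complement genes, with a median of -1.42, but none was called by edgeR, 8 had an unadjusted p under 0.05 and DESeq2 called 7 lower. That median was -0.91 without normal replicate 2. Cfd, the most abundant of them, was at 235, 673 and 1296 CPM against 776, 2186 and 1491 CPM. Mbp, a myelin gene of the Schwann cell, was below normal in every acellular sample, at 25.5, 96.1 and 129 CPM against 201, 231 and 262 CPM, and was not called; Egr2, a myelin and immediate-early factor, was the only gene of 17 that edgeR called and rose, while most of the list lay the other way. Of the 17 genes 14 had a negative log2 fold change, with a median of -0.94, 10 had every acellular sample below every normal one, against 20.5% of all genes, and DESeq2 called 2 higher and 5 lower. Without acellular 15 mm replicate 1 edgeR called 5 lower, and without replicate 3 the median was -1.43.

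Skint11, a gene of a keratinocyte family that selects skin T cells, was at 0.167, 0.562 and 0.267 CPM against 4.86, 4.84 and 10.2 CPM, and Ifitm6, made in myeloid cells, at 0.111, 0.562 and 0.586 CPM against 7.901, 11.9 and 15.6 CPM. Both were near 0 in acellular 15 mm skin and belong to families with close copies, so their counts may hold reads of a relative.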
